A study of Mus musculus with 8 samples.

Results

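Collagen genes were examined in white quadriceps muscle of mice that lack Acot2 in muscle. Every gene named Col, a number, a and a number was taken if 4 or more of the 8 libraries held no fewer than 10 normalized reads of it. Of 44 such names in the table, 38 met this rule, among 13638 genes that met it in all. They were grouped as 11 fibrillar, 8 basement membrane, 4 tendon-associated, 5 type VI and 10 other collagens. RNA came from male mice aged 11 to 14 weeks that were fed Purina chow. The Cre group was 4 mice of the genotype CKM Cre (Acot2 ko in muscle), and the Loxp group was 4 mice of the genotype Loxp/Loxp. The Ckm promoter, from the muscle creatine kinase gene, drives Cre recombinase in skeletal and heart muscle fibres. The labels name no Cre for the Loxp mice, so that Cre itself and the loss of Acot2 cannot be told apart. Libraries are called by group and replicate. Replicates were numbered within each group, so that an equal number in both groups marks neither a pair nor a batch. P-values from limma set the difference between groups against the spread between mice of a group.

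Collagens are triple-helical proteins of the extracellular matrix, and each triple helix is built from chains that separate genes encode. Fibrillar collagens form the cables of the connective tissue sheaths of muscle and of tendon, type IV collagen forms the network of the basement membrane around each fibre, and type VI collagen links that membrane to the fibrils. Most collagen mRNA of muscle is made by fibroblasts, tendon cells and vessel cells rather than by the muscle fibres. In such bulk tissue, fewer cells of a type and less RNA per cell cannot be told apart.

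The libraries held 30415437 to 48834289 reads, as recovered from the normalized values and summed over genes, and the deepest was Cre replicate 4. Acot2, the mitochondrial thioesterase that was targeted, had 47.3 ± 5.03 normalized reads in Cre muscle and 213 ± 45.9 in Loxp muscle (SD, n = 4 each), with no overlap between the groups. Its log2 fold change was −2.13 (SE 0.18, limma adjusted p = 0.000962, exact permutation p = 0.0286, the smallest that 70 relabellings allow on both sides). Over all 13638 genes tested, 2 passed an adjusted p of 0.05 in limma, or 0.0147%. Markers of fast glycolytic fibres, which define white muscle, took 13.6% to 15.9% of normalized reads in Cre and 14.4% to 16.1% in Loxp libraries.

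The share of collagen mRNA in the transcriptome overlapped between the groups. The 38 genes together took 0.216% to 0.393% of normalized reads in Cre libraries, with a mean of 0.288% ± 0.0759, against 0.234% to 0.323% in Loxp libraries, with a mean of 0.275% ± 0.0367 (SD, n = 4 each). Levels of the genes were compared per kb of the longest coding transcript, as means over all 8 libraries. Col3a1 had 3845 normalized reads per kb, Col1a2 3350 and Col1a1 3037. Next came Col4a1 with 1306, Col6a1 with 799, Col4a2 with 762, Col6a2 with 647 and Col6a3 with 556 reads per kb. The interstitial types I and III, the common type IV chains and the common type VI chains thus led the list. Per kb, Col1a2 had 3594 ± 1240 reads in Cre and 3105 ± 821 in Loxp muscle, and Col1a1 had 3209 ± 1372 in Cre and 2865 ± 1130 in Loxp muscle, so that the ranges of these neighbours in the order overlapped across mice. Within a library, Col1a1 over Col1a2 per kb was 0.773 to 0.967 in Cre and 0.841 to 1.05 in Loxp muscle, below 1 in 7 of 8 libraries. At the low end, Col2a1 had 4.82, Col26a1 4.75, Col4a6 3.77 and Col6a5 3.04 reads per kb.

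No collagen gene passed the test between Cre and Loxp muscle. The smallest adjusted p among the 38 was 0.9995 in limma, and limma-voom on the recovered reads also called 0. At an unadjusted p under 0.05 there were 4 collagen genes in limma, or 10.5% of the 38, against 2.91% of all genes tested, and limma-voom gave 4 as well. Col9a1, Col11a2 and Col12a1 were higher in Cre muscle, where 1.19% of all genes met that criterion, and Col26a1 was lower, where 1.72% did. Col26a1 met the rule mainly through the Loxp libraries, and without any filter on low values the count was 3, with Col26a1 no longer in it. The count moved with single libraries. It was 1, Col9a1, without Cre replicate 4, without Loxp replicate 1 or without Loxp replicate 2. It was 2 without Cre replicate 1, and 8 without Loxp replicate 3 or without Loxp replicate 4. The share of 2.91% of all genes is that of the main fit alone, so it is no background for these counts. Col9a1 itself left the count without Cre replicate 3, its highest library, and without Cre replicates 3 and 4 together. It also left without Loxp replicates 2 and 3 together, where the count was 0. The log2 fold change was above 0 for 22 of the 38 collagens, or 57.9%, against 51.7% of all genes, and its median was 0.039 over the collagens and 0.0049 over all genes.

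**Figure D1:**
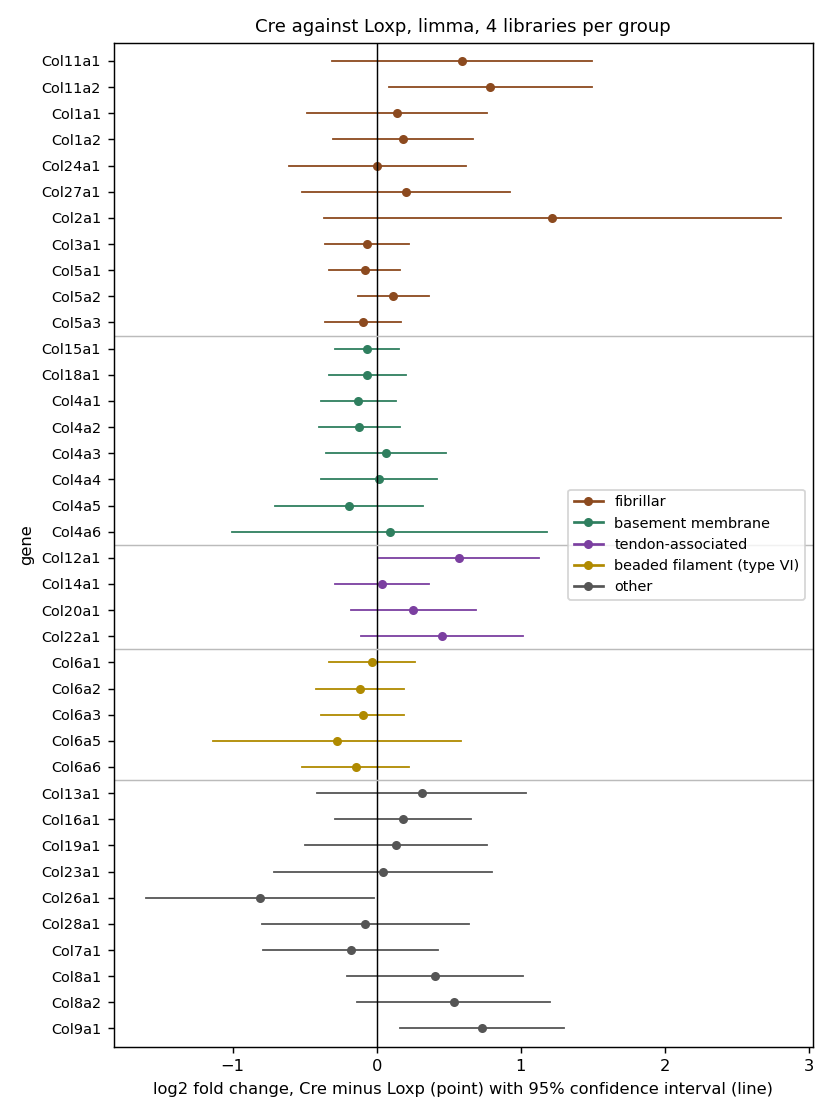
Log2 fold change of the 38 collagen genes, Cre minus Loxp (horizontal axis), with the 95% confidence interval from limma as a line, 4 libraries per group, coloured by class. The 4 tendon-associated points lie right of 0, the 5 type VI points lie left of 0, and all but 4 lines cross 0.

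The fibrillar class had a median log2 fold change of 0.14, with 8 of 11 members above 0, 0 called and 1 at an unadjusted p under 0.05. Of all genes, 51.7% were above 0 and 2.91% had such a p. Col1a1, which encodes the main chain of type I collagen on chromosome 11 (GRCm38, 94936224 to 94953042), had 19472, 12751, 13523 and 30374 normalized reads in Cre replicates 1 to 4. In Loxp replicates 1 to 4 it had 13656, 14072, 13202 and 27030. Replicate 4 was the highest library of each group. It stood far above the others in Loxp muscle, whereas in Cre muscle replicate 1 lay between, and the groups overlapped. The log2 fold change was 0.14 (95% interval −0.48 to 0.77), and it was −0.11 without Cre replicate 4. Col1a2, the partner chain of type I, had 19621, 13150, 15787 and 28334 normalized reads in Cre muscle and 14411, 15083, 13779 and 23144 in Loxp muscle. Its order of libraries was close to that of Col1a1, and its log2 fold change was 0.18 (95% interval −0.30 to 0.67), or −0.023 without Cre replicate 4.

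Col3a1, whose product forms the finer fibrils of the sheaths within muscle, stood apart in neither replicate 4 library. It had 20950, 17150, 21821 and 23426 normalized reads in Cre muscle and 24620, 25184, 16923 and 21057 in Loxp muscle, with a log2 fold change of −0.067 (95% interval −0.36 to 0.22). The type V chains, which seed type I fibrils and limit their width, were as even. Col5a1 ranged over 2699 to 3674 normalized reads in Cre and 2817 to 3778 in Loxp muscle. Col5a2 ranged over 2417 to 3481 in Cre and 2359 to 3123 in Loxp muscle, and Col5a3 over 1971 to 2390 in Cre and 1771 to 2659 in Loxp muscle. The log2 fold changes of these 3 were −0.084, 0.12 and −0.094. Col3a1 and Col5a2 are neighbours on chromosome 1, at 45311538 to 45349706 on the plus strand and 45374321 to 45503282 on the minus strand (GRCm38).

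The type XI chains, which seed fibrils in cartilage and tendon, had larger differences and larger spreads. Col11a2 (chromosome 17, 34039437 to 34066685) had 418, 318, 323 and 629 normalized reads in Cre muscle and 191, 139, 251 and 450 in Loxp muscle. Replicate 4 was the highest of each group, and 3 of the 4 Loxp libraries lay below every Cre library. Its log2 fold change was 0.79 (SE 0.32, 95% interval 0.083 to 1.50, limma unadjusted p = 0.032, adjusted p = 0.9995). Col11a1 had 409, 209, 281 and 659 normalized reads in Cre muscle and 116, 203, 284 and 458 in Loxp muscle, with a log2 fold change of 0.59 (95% interval −0.31 to 1.49). Col2a1, the main cartilage collagen whose gene also supplies the third chain of type XI, was low throughout. It had 15.2, 15.9, 27.4 and 68.7 normalized reads in Cre muscle and 4.02, 4.48, 12.4 and 48.7 in Loxp muscle. The 2 highest values were again the replicate 4 libraries, and the log2 fold change was 1.22 with a wide 95% interval of −0.36 to 2.80. Every Cre library reached the level set by the rule, whereas the Loxp values of 4.02 and 4.48 lay under it. Col2a1 was therefore admitted mainly by the group in which it is high, and its log2 fold change carries that limit. Col24a1 and Col27a1, fibrillar collagens of developing bone and cartilage, ranged over 55.3 to 127 and 33.1 to 86.8 normalized reads in the 8 libraries, with log2 fold changes of 0.0049 and 0.20.

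**Figure D2:**
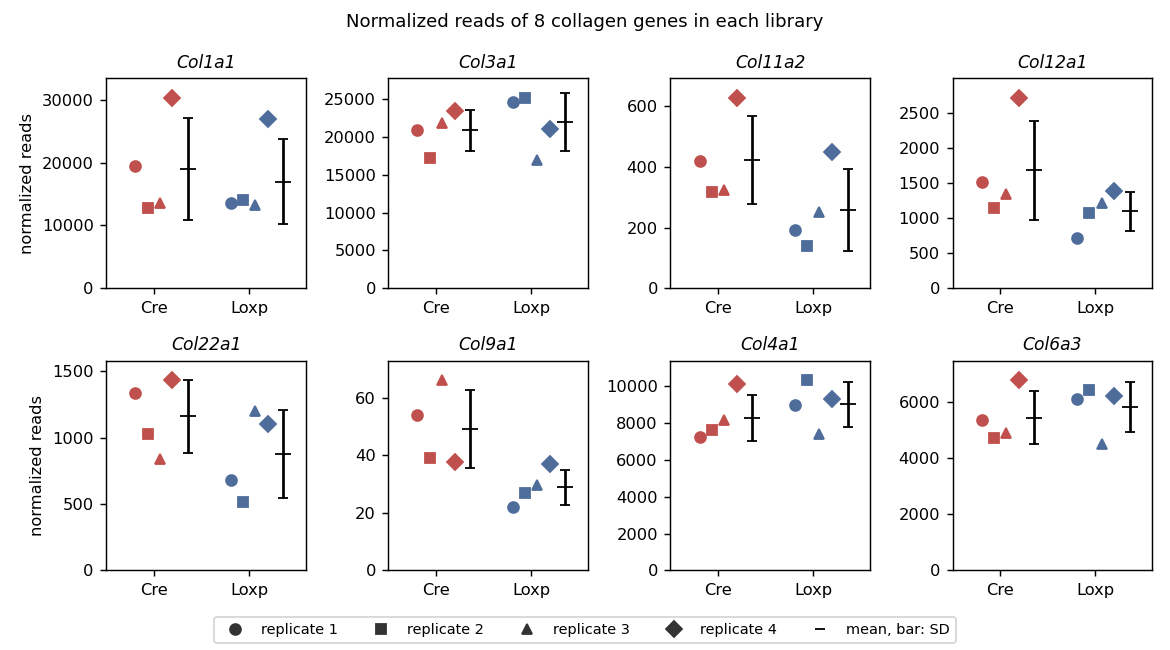
Normalized reads (vertical axis, from 0) of 8 collagen genes in each Cre and Loxp library, with the replicate as the symbol and the mean and SD of 4 libraries as the black bar. Col1a1 is high in both replicate 4 libraries, at 30374 and 27030 reads, Col9a1 is the only gene shown whose groups do not overlap, and Col3a1, Col4a1 and Col6a3 overlap widely.

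Types I and III are made largely by the same fibroblasts, and the ratio of their mRNAs varied between mice. Col3a1 over Col1a1, in normalized reads, was 1.08, 1.35, 1.61 and 0.771 in Cre muscle and 1.80, 1.79, 1.28 and 0.779 in Loxp muscle. Both replicate 4 libraries were the lowest of their groups. Col1a1 over Col1a2 stayed within 0.857 to 1.07 in Cre and 0.933 to 1.17 in Loxp muscle. Among 13 ratios between collagen genes, 2 did not overlap between the groups. For single genes the share without overlap was 1.92%, which is no background for ratios, and a share over ratios of other genes was not computed. Both ratios are given because of their values and were not tested. Col6a1 over Col6a2 was 1.10 to 1.16 in Cre and 1.03 to 1.09 in Loxp muscle. Col5a1 over Col5a2 was 1.06 to 1.14 in Cre and 1.14 to 1.38 in Loxp muscle, where the nearest libraries differ only in the next digit.

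**Figure D3:**
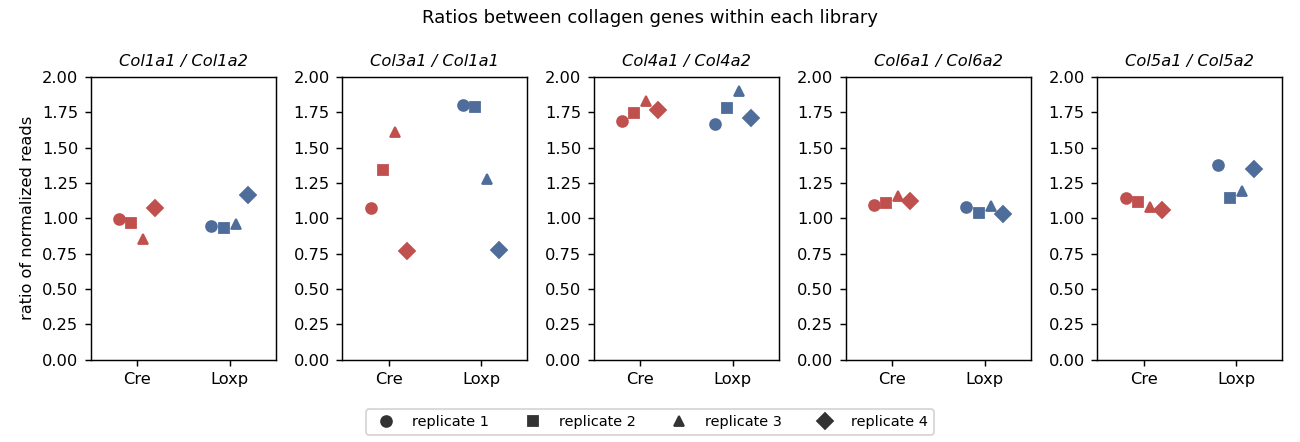
Ratio of normalized reads between 2 collagen genes within each library (vertical axis, from 0), Cre left of Loxp, with the replicate as the symbol. Col3a1 over Col1a1 spans 0.771 to 1.80, whereas Col4a1 over Col4a2 stays within 1.67 to 1.90.

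Promoter windows were available for 30 of the 38 collagens, as 33 windows of 250 bases before to 50 bases after a transcription start (RefSeq, GRCm38.p6). They were searched on both strands for the motifs CCAAT, for GGGCGG and for TATAAA, each also as its reverse complement. In the 4 windows shown no match overlapped another, and a match is a description and not a binding site. CCAAT was in 10 of the 33 collagen windows, against 37.4% of 32851 windows of all genes, GGGCGG was in 20 of 33 against 35.7%, and TATAAA was in 3 of 33 against 13.6%. Below are the windows of the type I chain Col1a2, which moved with Col1a1 across libraries, and of Col11a2, the fibrillar gene with an unadjusted p under 0.05. They lie at chr6:4505368-4505667 and chr17:34038888-34039187, both on the plus strand, and matches are in capitals.
Col1a2: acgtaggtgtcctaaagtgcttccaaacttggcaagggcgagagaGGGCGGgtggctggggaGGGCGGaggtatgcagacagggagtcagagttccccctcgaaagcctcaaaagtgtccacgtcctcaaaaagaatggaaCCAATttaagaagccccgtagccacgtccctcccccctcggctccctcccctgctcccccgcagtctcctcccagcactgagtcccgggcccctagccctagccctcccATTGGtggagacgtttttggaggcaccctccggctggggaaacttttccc
Col11a2: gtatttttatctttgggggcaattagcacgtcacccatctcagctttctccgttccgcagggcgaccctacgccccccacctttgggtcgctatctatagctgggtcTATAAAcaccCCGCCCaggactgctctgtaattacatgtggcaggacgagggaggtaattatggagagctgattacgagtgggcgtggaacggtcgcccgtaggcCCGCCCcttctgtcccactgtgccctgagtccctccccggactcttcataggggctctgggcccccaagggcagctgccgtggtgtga
The Col1a2 window holds 2 matches each of CCAAT and GGGCGG and no TATAAA. The Col11a2 window holds TATAAA once, GGGCGG at 2 places and no CCAAT.

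The basement membrane class had a median log2 fold change of −0.066, with 3 of 8 members above 0, and neither a call nor an unadjusted p under 0.05. Among all genes 51.7% were above 0. Col4a1 and Col4a2 encode the chains of the type IV network found in all basement membranes. Col4a1 had 7232, 7601, 8143 and 10085 normalized reads in Cre muscle and 8993, 10347, 7397 and 9314 in Loxp muscle. Col4a2 had 4273, 4356, 4456 and 5706 in Cre muscle and 5381, 5799, 3886 and 5447 in Loxp muscle. For both genes, 3 Cre libraries lay below 3 of the Loxp libraries, and Cre replicate 4 and Loxp replicate 3 crossed over. The log2 fold changes were −0.13 (95% interval −0.38 to 0.13) and −0.12 (95% interval −0.40 to 0.16).

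These 2 genes also share a promoter region. They stand head to head on chromosome 8, Col4a1 on the minus strand and Col4a2 on the plus strand, and their RefSeq starts lie 21 bases apart, so that the transcripts share 22 exonic bases on opposite strands. The windows are shown since they share 78 bases, the end of one being the reverse complement of the end of the other. They lie at chr8:11312777-11313076 on the minus strand for Col4a1 and chr8:11312555-11312854 on the plus strand for Col4a2, and each is printed 5′ to 3′ on its own strand with the same motifs in capitals.
Col4a1: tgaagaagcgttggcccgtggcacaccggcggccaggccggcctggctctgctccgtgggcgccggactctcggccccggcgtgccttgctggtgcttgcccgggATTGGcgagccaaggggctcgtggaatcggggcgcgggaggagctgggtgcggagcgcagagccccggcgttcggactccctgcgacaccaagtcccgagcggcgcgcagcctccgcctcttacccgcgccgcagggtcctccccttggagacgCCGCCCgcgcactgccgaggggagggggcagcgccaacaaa
Col4a2: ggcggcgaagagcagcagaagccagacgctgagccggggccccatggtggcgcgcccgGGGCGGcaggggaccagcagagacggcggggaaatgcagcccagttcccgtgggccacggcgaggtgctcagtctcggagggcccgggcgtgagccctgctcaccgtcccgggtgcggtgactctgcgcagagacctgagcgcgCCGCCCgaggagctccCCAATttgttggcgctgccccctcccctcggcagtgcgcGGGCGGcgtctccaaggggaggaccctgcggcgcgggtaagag
Each window holds CCAAT once, and neither holds TATAAA. The motif GGGCGG is present once in the Col4a1 window and 3 times in the Col4a2 window. In normalized reads, Col4a1 over Col4a2 was 1.69, 1.74, 1.83 and 1.77 in Cre muscle and 1.67, 1.78, 1.90 and 1.71 in Loxp muscle, so that it varied by 1.14 times in all.

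Among the other type IV chains, Col4a3, Col4a4 and Col4a5 form the network known from the kidney filter, and Col4a6 joins Col4a5 in other membranes. Col4a3 ranged over 193 to 294 normalized reads in Cre and 168 to 301 in Loxp muscle, and Col4a4 over 291 to 511 in Cre and 275 to 419 in Loxp muscle. Col4a5 ranged over 263 to 509 in Cre and 315 to 577 in Loxp muscle, and Col4a6 over 13.7 to 38.2 in Cre and 7.04 to 41.1 in Loxp muscle. Their log2 fold changes lay between −0.19 and 0.089, and each group spanned most of the range of the other. Like Col4a1 and Col4a2, these genes stand in head-to-head pairs, Col4a3 with Col4a4 on chromosome 1 and Col4a5 with Col4a6 on the X chromosome. Col15a1, which tethers basement membranes of muscle and capillaries to the fibrils, had 1942 to 2648 normalized reads in Cre and 2112 to 2550 in Loxp muscle, with a log2 fold change of −0.069. Col18a1, the precursor of endostatin in vessel walls, had 478 to 654 in Cre and 457 to 619 in Loxp muscle, with a log2 fold change of −0.064.

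All 4 tendon-associated collagens lay above 0 in log2 fold change, and their median was 0.35, against 51.7% of all genes above 0 and a median of 0.0049. None was called, and 1 had an unadjusted p under 0.05, as did 2.91% of all genes. Col12a1, which coats type I fibrils in tendon and muscle sheaths (chromosome 9, 79598991 to 79718831), had 1508, 1147, 1349 and 2715 normalized reads in Cre muscle and 721, 1072, 1208 and 1382 in Loxp muscle. Cre replicate 4 was far above and Loxp replicate 1 below the other 6 libraries, which ranged from 1072 to 1508 with no break between groups. The log2 fold change was 0.57 (SE 0.25, 95% interval 0.016 to 1.13, limma unadjusted p = 0.045, adjusted p = 0.9995), and it was 0.31 to 0.73 with 1 library left out.

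Col22a1, a collagen of the myotendinous junction where fibres meet tendon, had 1338, 1028, 838 and 1436 normalized reads in Cre muscle and 683, 518, 1202 and 1105 in Loxp muscle. The 2 lowest libraries were Loxp and the 2 highest Cre, with the other 4 mixed, and the log2 fold change was 0.45 (95% interval −0.11 to 1.01). Col14a1, which also binds fibril surfaces, had 546, 417, 568 and 772 normalized reads in Cre muscle and 545, 551, 558 and 538 in Loxp muscle. The Loxp libraries lay close together within the much wider Cre range, and the log2 fold change of 0.037 turned to −0.12 without Cre replicate 4. Col20a1, a related collagen known mainly from chick embryos, had 84.2, 68.5, 105 and 101 normalized reads in Cre muscle and 57.3, 90.7, 81.2 and 71.4 in Loxp muscle, with a log2 fold change of 0.25.

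The type VI collagens had a median log2 fold change of −0.12, with 0 of 5 above 0 and none with an unadjusted p under 0.05. Among all genes 51.7% were above 0. Col6a1, Col6a2 and Col6a3 encode the chains of the beaded filaments around muscle fibres, whose loss causes muscular dystrophy in humans. Col6a1 had 2520 to 4189 normalized reads in Cre and 2795 to 3661 in Loxp muscle. Col6a2 had 2275 to 3736 in Cre and 2570 to 3556 in Loxp muscle. Col6a3 had 5351, 4719, 4873 and 6779 in Cre muscle and 6090, 6416, 4495 and 6213 in Loxp muscle. In each of these genes Cre replicate 4 was the highest library and the groups overlapped. The log2 fold changes were −0.032, −0.12 and −0.097, and that of Col6a1 turned to 0.084 without Cre replicate 2 and to 0.022 without Loxp replicate 4. Col6a5 and Col6a6 encode chains that can take the place of the α3 chain. Col6a6 had 763 to 965 normalized reads in Cre and 628 to 1242 in Loxp muscle, and Col6a5 had 14.7 to 32 in Cre and 18.1 to 49.2 in Loxp muscle, with log2 fold changes of −0.15 and −0.27.

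Of the other 10 collagens, 7 lay above 0 in log2 fold change, their median was 0.16, and 2 had an unadjusted p under 0.05 in opposite directions. Of all genes, 51.7% lay above 0 and 2.91% had such a p. Col9a1, a cartilage collagen that decorates type II fibrils (chromosome 1, 24177610 to 24252684), had 53.9, 39.1, 66.2 and 37.5 normalized reads in Cre muscle and 22.1, 26.9, 29.6 and 36.8 in Loxp muscle. Every Cre library lay above every Loxp library, by little between Cre replicate 4 and Loxp replicate 4, and it was the only one of the 38 collagens whose groups did not overlap, or 2.63%, against 0.924% of all genes in that direction. No collagen lay wholly lower in Cre muscle, where 0.997% of all genes did, and over both directions 1.92% of all genes were without overlap. Its log2 fold change was 0.73 (SE 0.26, 95% interval 0.17 to 1.30, limma unadjusted p = 0.016, adjusted p = 0.9995), and it stayed between 0.58 and 0.86 with any 1 library left out. Its partners in type IX, Col9a2 and Col9a3, did not meet the rule.

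Col26a1, known from testis and ovary, had 13.5, 9.78, 7.99 and 6.37 normalized reads in Cre muscle and 15.1, 16.8, 13.4 and 22.7 in Loxp muscle. Only Cre replicate 1 reached the Loxp range, and the gene met the rule through that library and the 4 Loxp libraries. It was therefore admitted mainly by the group in which it is high, and its log2 fold change of −0.81 (limma unadjusted p = 0.046, adjusted p = 0.9995) carries that limit. Col8a1 and Col8a2 encode short-chain collagens of vessel walls and the cornea. Col8a1 had 167, 204, 260 and 352 normalized reads in Cre muscle and 153, 115, 205 and 278 in Loxp muscle. Col8a2 had 245, 170, 161 and 352 in Cre muscle and 109, 107, 183 and 249 in Loxp muscle. The groups overlapped in both, and the log2 fold changes were 0.41 (95% interval −0.20 to 1.02) and 0.53 (95% interval −0.14 to 1.20).

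The remaining 6 had log2 fold changes between −0.18 and 0.31, and their groups overlapped. Col13a1, a membrane collagen of the nerve-muscle junction, had 20.8 to 58.1 normalized reads in Cre and 21.3 to 38.2 in Loxp muscle. Col16a1, a fibril-associated collagen, had 317 to 556 in Cre and 234 to 449 in Loxp muscle, and the related Col19a1 had 70.8 to 174 in Cre and 74.5 to 158 in Loxp muscle. Col23a1, another membrane collagen, had 25.3 to 97 in Cre and 38.2 to 58.4 in Loxp muscle. Col28a1, found along peripheral nerves, had 24.4 to 65.9 in Cre and 24.8 to 48.1 in Loxp muscle, and Col7a1, the anchoring collagen of skin, had 42.2 to 106 in Cre and 74.5 to 107 in Loxp muscle. Just inside the rule, Col26a1 reached 10 normalized reads in 5 libraries. Just outside it, Col9a2 reached 22.7 and 20.1 normalized reads in 1 library of each group, and Col17a1, of skin adhesion complexes, reached 13.5 in Cre and 12.3 in Loxp muscle. Col25a1, Col6a4, Col9a3 and Col10a1 stayed at or under 7.04 normalized reads.

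**Figure D4:**
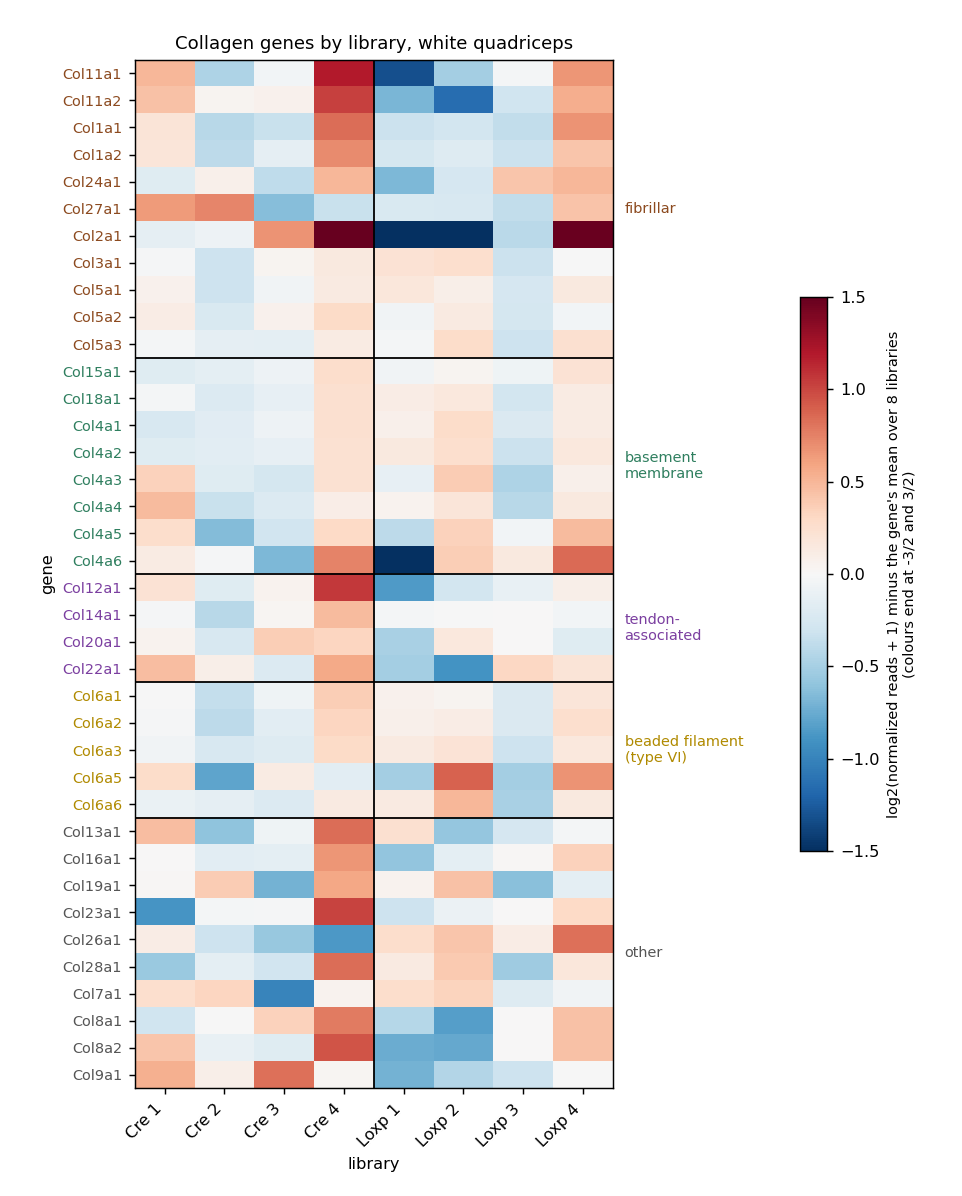
Each collagen gene (vertical axis, by class) in each library (horizontal axis, Cre left of Loxp), as log2(normalized reads + 1) minus the gene's mean over the 8 libraries, with red for higher and blue for lower. The Cre replicate 4 column is red for most genes and is the highest library for 21 of 38.

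Across libraries, Cre replicate 4 was the highest library for 21 of the 38 collagens, or 55.3%, and for 12.9% of all genes tested. This held for 6 of 11 fibrillar, 2 of 8 basement membrane, 3 of 4 tendon-associated, 3 of 5 type VI and 7 of 10 other collagens. Loxp replicate 2 was the highest for 8 collagens and Loxp replicate 3 for 0. Median deviations of the fibrillar class from each gene's mean, on the log2 scale, were 0.11, −0.23, −0.055 and 0.49 in Cre replicates 1 to 4. They were −0.26, −0.25, −0.31 and 0.43 in Loxp replicates 1 to 4. Cre replicate 4 and Loxp replicate 4, whose equal number marks neither a pair nor a batch, were each the highest of their group. The basement membrane class was high in Loxp replicate 2 instead, at 0.26, beside 0.24 in Cre replicate 4 and 0.15 in Loxp replicate 4.

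Tendon and myotendinous genes varied along with these libraries. Of this list, 13 of 14 lay above 0 in log2 fold change, against 51.7% of all genes, the median was 0.52, and 0 were called. Tnmd, Thbs4, Comp, Cilp and Cilp2, which are named because of their values, were the 5 with an unadjusted p under 0.05, all higher in Cre muscle, where 1.19% of all genes were. Its median deviation was 0.44, −0.12, 0.093 and 0.73 in Cre replicates 1 to 4 and −0.70, −0.55, −0.063 and 0.37 in Loxp replicates 1 to 4. The summed level ranged over 11500 to 20466 normalized reads in Cre and 8498 to 14218 in Loxp muscle, with no member at 0, and Cre replicate 4 was the highest library for 13 of the 14. Thbs4, the thrombospondin of tendon and muscle attachment sites, had 5088, 4577, 4374 and 6235 normalized reads in Cre muscle and 3429, 2899, 3452 and 3776 in Loxp muscle, without overlap. Its log2 fold change was 0.57 (SE 0.11, limma unadjusted p = 0.000323, adjusted p = 0.9995). The tendon matrix genes Fmod, Cilp and Tnc had log2 fold changes of 0.46, 0.43 and 0.41. The part of tendon tissue in the collagen values was not tested.

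**Figure D5:**
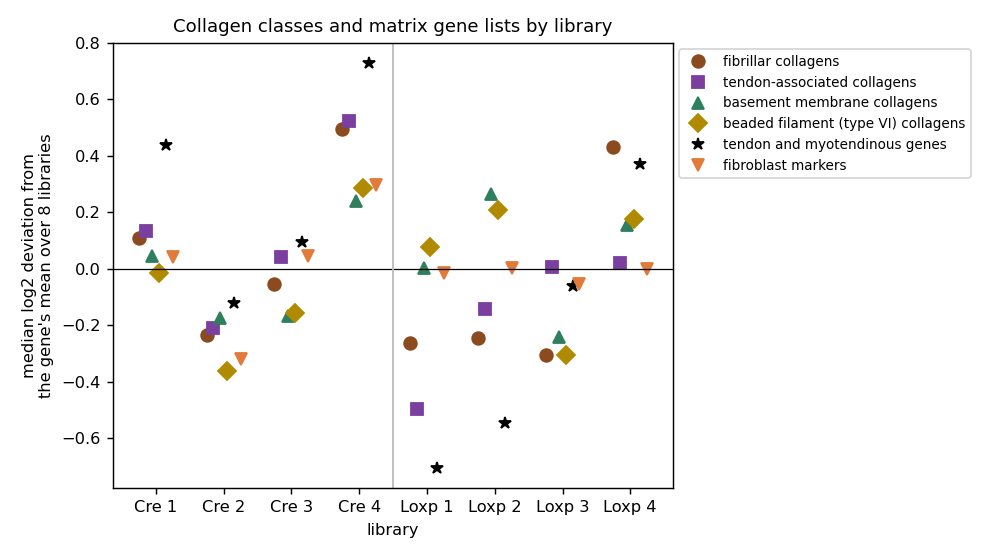
Median log2 deviation from each gene's mean over the 8 libraries (vertical axis) for 4 collagen classes, the tendon and myotendinous list and the fibroblast markers, in each library (horizontal axis). The tendon list runs from −0.70 in Loxp replicate 1 to 0.73 in Cre replicate 4, and fibroblast markers stay between −0.32 and 0.30.

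Markers of other cells differed between the same libraries. The 14 fibroblast markers summed to 41390 to 63146 normalized reads in Cre and 49860 to 53058 in Loxp muscle, with a median log2 fold change of 0.020 and 0 at an unadjusted p under 0.05. Slow fibre markers summed to 2076, 2620, 7855 and 19890 in Cre muscle and to 2145 to 3024 in Loxp muscle, so that Cre replicate 4 was also the richest in slow fibre RNA. All 8 slow fibre markers lay above 0 in log2 fold change, against 51.7% of all genes, with a median of 1.69, or −0.17 without Cre replicates 3 and 4. Only 1, Myh7, had an unadjusted p under 0.05, higher in Cre muscle, where 1.19% of all genes were. Fat-cell markers summed to 14984 to 57186 in Cre and 9169 to 73393 in Loxp muscle, with a median deviation of 3.21 in Loxp replicate 2 and 1.97 in Loxp replicate 3. Of the 8 fat-cell markers, 7 were below 0, the median log2 fold change was −1.93, or −0.22 without Loxp replicates 2 and 3, and 4 had an unadjusted p under 0.05, all lower in Cre muscle, where 1.72% of all genes were. No fat-cell marker was at 0, and 1 slow fibre marker, Tnni1, was at 0 in Cre replicate 1. Most of the fat-cell sum was Car3, which muscle fibres also express and which was the 1 marker above 0. Car3 had 13960 to 56807 normalized reads in Cre and 8664 to 59010 in Loxp muscle, so that the sums mainly follow Car3. Endothelial markers had a median log2 fold change of −0.067, smooth muscle and pericyte markers −0.22, macrophage markers −0.13, Schwann cell markers 0.091 and fast glycolytic fibre markers 0.0089. Among the 7 smooth muscle and pericyte markers, 5 were below 0 and 2 above. Of the 7, 1, Cnn1, had an unadjusted p under 0.05, lower in Cre muscle, where 1.72% of all genes were. The part of any of these cells in the collagen values was not tested. Without Cre replicate 4 and Loxp replicate 4 together, 4 collagens had a limma unadjusted p under 0.05. This setting was chosen after the values were seen, as these libraries were the highest of their groups in the tendon list. The share of all genes with such a p is not given for it. Col11a2, Col12a1, Col2a1 and Col9a1 were higher in Cre muscle by 0.89, 0.44, 1.46 and 0.97 on the log2 scale. Of these, Col2a1 met the rule mainly through the Cre libraries. In the libraries kept, the median deviation of the tendon list was 0.44, −0.12 and 0.093 in Cre and −0.70, −0.55 and −0.063 in Loxp muscle.

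The genes that make, process and bind collagen showed no call either. Among all genes, 51.7% were above 0 in log2 fold change and 2.91% had an unadjusted p under 0.05. Of 20 tested genes for collagen folding and modification in the endoplasmic reticulum, 14 lay above 0 in log2 fold change, with a median of 0.052 and 0 at an unadjusted p under 0.05. P4hb, a subunit of prolyl 4-hydroxylase, which stabilises the triple helix, had 4916 ± 310 normalized reads in Cre and 4696 ± 143 in Loxp muscle (SD, n = 4 each). Of 12 genes that trim or cross-link procollagen, 9 were above 0, with a median of 0.063 and 1, Loxl4, at an unadjusted p under 0.05. Pcolce, which speeds removal of the C-terminal propeptide, had 910 ± 197 in Cre and 895 ± 80.1 in Loxp muscle. Of 9 genes for collagen breakdown and its inhibitors, 6 were above 0, with a median of 0.049. Timp3, an inhibitor of matrix metalloproteinases, had 3993 ± 307 in Cre and 3850 ± 398 in Loxp muscle.

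All 10 small leucine-rich proteoglycans, which bind fibrils and set their spacing, lay above 0 in log2 fold change, with a median of 0.19, where 51.7% of all genes were above 0. Of the 10, 1, Prelp, had an unadjusted p under 0.05, as did 2.91% of all genes. Fmod and Kera stand in this list and in the tendon list. Dcn, decorin, had 11087 ± 1685 normalized reads in Cre and 9762 ± 875 in Loxp muscle, with a log2 fold change of 0.17 (95% interval −0.063 to 0.41). Of 12 other basement membrane proteins, 3 were above 0, with a median of −0.084, beside −0.066 for the basement membrane collagens. Hspg2, the heparan sulfate proteoglycan perlecan, had 10685 ± 1362 in Cre and 11484 ± 1191 in Loxp muscle. Of 9 collagen receptors, 7 were above 0, with a median of 0.15, and the common integrin chain Itgb1 had 7561 ± 68.8 in Cre and 7494 ± 311 in Loxp muscle.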

How the data were processed

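The authors deposited 1 table of normalized expression, on a log2 scale, for 54091 gene names in 8 libraries; the column headers are animal numbers that end the sample titles. Per the labels' protocols, total RNA was extracted with a Norgen kit and sequenced from TruSeq stranded libraries. Per the submitters' processing notes, FastQC, cutadapt, STAR, HTSeq, DESeq2 and the build GRCm38 were used; their order and settings, the counting annotation and the strand setting are not given in the sources used here. On that deposited log2 scale, values were read as log2(normalized reads + 1), since 2 to their power, minus 1, gave whole multiples of 1 read's worth (0.708 to 1.22) within a tolerance of 0.1 for 100% of values checked in each library. Replicates differed by far more than sampling noise, by a chi-square of 26 to 79.2 per gene.

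The deposited values of 13638 genes, each reaching 10 normalized reads in 4 or more libraries, were fitted with limma 3.58.1 (R 4.3.3), without a block, with a variance trend and Benjamini-Hochberg adjustment over all of them. One tested gene name stood on more than 1 line. Fold changes are on the log2(value + 1) scale, which understates changes of low genes. The fit was tested on simulated data. Alternatives were other pseudocounts, filters, scalings and library weights, limma-voom on recovered reads, a replicate block, and libraries left out. Every collagen that met the rule could be named, and of the other lists those with the highest mean. Loxl4, Prelp, Myh7, Cnn1, Tnni1, Car3 and some tendon genes were named after their values were seen. The members, classes and lists were chosen with earlier results of these data known. Gene positions and transcript lengths came from GENCODE M21 on GRCm38. Some exons overlap other genes, at most 563 bases for Col4a3, where the other gene lies on the opposite strand. How reads in such stretches were counted depends on the strand and counting settings, which are not given. Depth was 30415437 to 48834289 reads a library, recovered from the deposited values and summed over genes. The check for whole multiples covered values under 1000 reads. Intervals from limma are for the difference between group means, and their width reflects the spread between mice.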

Additional observations from a re-analysis of the deposited data

Results flagged for a closer look

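In 4 of the 78 groups of 4 libraries examined, 1 library lay far from the other 3; about 1 group in 20 does so by chance, or 3.9 of these groups. Col4a2 was high in Cre replicate 4, at 5706 normalized reads beside 4273 to 4456 in the other Cre libraries. Col1a1 was high in Loxp replicate 4, at 27030 beside 13202 to 14072. Col18a1 was low in Loxp replicate 3, at 457 beside 597 to 619, and so was Col6a3, at 4495 beside 6090 to 6416.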

How the results depend on the processing

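No collagen gene was called under any of the 20 alternatives, where the smallest adjusted p was 0.833, and 2 genes in all were called under each. The number of collagens at an unadjusted p under 0.05 was 4; it was 3 without a filter on low values, 1 among the 26 with a mean of at least 100 normalized reads, 2 with quantile normalization, 2 with library weights, 2 without Cre replicates 3 and 4, 0 without Loxp replicates 2 and 3, and 1 to 8 with 1 library left out. The share of all genes with such a p is not given for these alternatives. The class medians moved by less than the spread between replicates, and with 1 library left out they were −0.023 to 0.35 for fibrillar, −0.16 to −0.0058 for basement membrane, 0.25 to 0.46 for tendon-associated and −0.12 to 0.12 for all collagens. Of 748 recomputed values of collagen genes, 46 changed direction, in 17 of the 38 genes, and the cause was not tested.

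With library weights, the log2 fold change became −0.0036 for Col14a1, −0.039 for Col24a1, −0.12 for Col23a1 and −0.028 for Pcolce. Col28a1 became 0.0030 with limma-voom on recovered reads, and Itgb1 became −0.0066 with quantile normalization. Without Cre replicates 3 and 4, it was −0.20 for Col14a1, −0.0052 for Col5a2, 0.20 for Col7a1, −0.038 for Col1a1, −0.015 for Col1a2, −0.052 for Col24a1, −0.44 for Col23a1, −0.0024 for P4hb and −0.18 for Pcolce. Without Loxp replicates 2 and 3, it was −0.091 for Col4a4, −0.10 for Col1a1, −0.00015 for Col27a1, −0.017 for Pcolce and −0.023 for Itgb1. Without Cre replicate 4 and Loxp replicate 4, a setting chosen after seeing the data, it was −0.12 for Col14a1, −0.058 for Col19a1, −0.18 for Col23a1 and −0.096 for Pcolce.

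With 1 library left out in turn, the log2 fold change spanned −0.11 to 0.39 for Col1a1, −0.023 to 0.35 for Col1a2, −0.19 to 0.024 for Col3a1, −0.18 to 0.0055 for Col5a1, −0.22 to 0.17 for Col24a1 and −0.0059 to 0.45 for Col27a1. It spanned −0.077 to 0.20 for Col4a3, −0.14 to 0.13 for Col4a4, −0.41 to 0.39 for Col4a6, −0.12 to 0.18 for Col14a1, −0.16 to 0.084 for Col6a1 and −0.32 to 0.12 for Col7a1. For Col16a1 it was −0.0069 to 0.33, for Col19a1 −0.051 to 0.39, for Col23a1 −0.29 to 0.34, for Col28a1 −0.37 to 0.096, for Pcolce −0.13 to 0.11 and for Itgb1 −0.013 to 0.036.

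Adjacent animal numbers were tried as a replicate block, though the labels do not state that they mark a shared litter. Each pair of adjacent numbers holds a Cre and a Loxp mouse. Deviations of the 4 pairs correlated by −0.083, −0.081, 0.19 and 0.15, and 4 of 8 libraries correlated best with their own partner. So few mice cannot decide whether the numbers pair them, and the main fit had no block. With this replicate block, 0 collagens were called and 4 had an unadjusted p under 0.05, with the basement membrane gene Col4a5 (log2 fold change −0.19, limma unadjusted p = 0.045) in place of Col26a1. The limma unadjusted p with the block was 0.014 for Col12a1, 0.014 for Col9a1 and 0.036 for Col11a2. Low expression limits the precision of the genes with the fewest reads, such as Col26a1, Col4a6 and Col6a5.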
